A study of Mus musculus with 20 samples.

Results

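The genes described here encode the 5 NF-κB transcription factor subunits (Nfkb1, Nfkb2, Rel, Rela and Relb) and 5 I-κB proteins (Nfkbia, Nfkbib, Nfkbie, Nfkbiz and Bcl3). They were chosen by name, and all 10 were found among the 78409 genes listed, of which 34373 had a count in at least 1 library. RNA from cultured mouse bone marrow-derived macrophages (BMDMs) was sequenced from the 3′ end of polyadenylated transcripts in 20 libraries, 4 for each of 5 treatments. All BMDMs were wild-type cells from female C57BL/6J mice, used on day 7 of culture at 200000 cells per well in serum-free Opti-MEM. They received PBS (a buffer control), or fractions of bronchoalveolar lavage fluid (BALF, the fluid rinsed from the airways) taken from mice with ovalbumin (OVA)-induced allergic airway inflammation. The fractions were the extracellular vesicle-enriched fraction (EVFx) or the protein-enriched fraction (ProteinFx), each from RNY1+/+ mice or from RNY1-/- mice, which carry a CRISPR deletion of the gene for the small noncoding Y RNA RNY1. The genotype is thus that of the BALF donors, and the macrophages of all 5 groups had an intact RNY1 locus. EVFx was added at 35000000 particles per µL and ProteinFx at 0.75 µg of protein per µL, so genotypes were dose-matched within a fraction but the 2 fractions were dosed in different units. Neither labels nor methods tell if the 4 libraries of each treatment were made from separate BALF pools, marrow donors or wells, so p-values measure the spread between these samples, which may be technical. The methods give a single age range, in weeks, for the mice of the whole study and no separate age for these cultures.

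In resting cells, NF-κB dimers are held in the cytoplasm by the classical inhibitors I-κBα, I-κBβ and I-κBε. Ligands of Toll-like, interleukin-1 and tumor necrosis factor receptors activate the I-κB kinase (IKK) complex, which marks these inhibitors for degradation, and the freed dimers enter the nucleus. Several members are themselves NF-κB target genes, above all Nfkbia, whose renewed synthesis ends the response. I-κBζ and Bcl-3 are nuclear members of the I-κB family that act as cofactors of the p50 or p52 subunits, and in macrophages I-κBζ is needed for a subset of secondary response genes.

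Libraries held 2510005 to 8277366 counts (median 5456425). Levels are given as CPM, a gene's count scaled by the total of its library, and replicates are listed in the order 1 to 4. Fold changes, standard errors (SE) and adjusted p-values were those of the quasi-likelihood test of edgeR, adjusted by Benjamini-Hochberg over all genes tested, with TMM scaling (a library scaling that assumes most genes do not change), so they are not exact ratios of CPM. Scaling by total counts instead moved the median of all genes to between -0.27 and 0.19 on the log2 scale. A gene was called at an adjusted p under 0.05, and counted as a differentially expressed gene (DEG) where the absolute log2 fold change was also above 1. All 10 members passed the filter on low counts in each comparison. PBS replicate 3 stood apart, with squared differences from the other PBS libraries of 16.9 to 34.996 times counting noise, against 2.30 to 10.5 among those. The RNY1-/- ProteinFx libraries fell into the pairs 1 and 2 (3.52 times) and 3 and 4 (2.58 times), with 13.4 to 15.8 times across the pairs. Where leaving these libraries out changed a call, this is stated beside it. The macrophage markers Adgre1, Csf1r, Cd68, Itgam, Lyz2, Mertk, Fcgr1 and Cd14 were present in each group and summed to between 8620 and 12968 CPM. Lyz2 was the largest part, and single markers moved in opposite directions. Lyz2 averaged 8416 CPM in PBS and 4578 to 5333 CPM in the treated groups, and Cd68 was also lower there. Adgre1 averaged 859 CPM in PBS and 2422 to 3203 CPM in the treated groups. Of the 6 eosinophil markers, Epx and Il5ra were at 0 in all groups, and the summed list, most of it Ccr3, was 7.17 to 13.5 CPM in PBS, 0.801 to 1.42 and 1.31 to 2.46 CPM in the RNY1+/+ and RNY1-/- EVFx groups, and 14.7 to 21.1 and 12.4 to 17.1 CPM in the RNY1+/+ and RNY1-/- ProteinFx groups. The 9 neutrophil markers, most of whose sum was S100a8 and S100a9, with Ly6g at 0 in 4 of the 5 groups, summed to 282 to 333 CPM in PBS, 143 to 209 and 184 to 265 CPM with RNY1+/+ and RNY1-/- EVFx, and 198 to 323 and 240.2 to 354 CPM with RNY1+/+ and RNY1-/- ProteinFx. The 6 fibroblast markers summed to 25.2 to 51.6 CPM in PBS, 22.5 to 39.7 and 11.1 to 20.9 CPM with RNY1+/+ and RNY1-/- EVFx, and 18.8 to 29.7 and 11.6 to 29.7 CPM with RNY1+/+ and RNY1-/- ProteinFx. Over all groups, T cell markers summed to 0.259 to 9.22 CPM, B cell markers to 1.04 to 4.34 CPM and airway epithelium markers to 5.07 to 32.1 CPM. The part of such cells in the results was not tested, and a change in cell number and a change in RNA per cell cannot be told apart in bulk RNA.

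To show where letters that match an NF-κB binding motif lie in these genes, the promoters of the members were searched. RefSeq promoter windows (GRCm38.p6, 250 bases before to 50 after each gene start) were held for 7 of the 10 members in 9 windows, all but Nfkb1, Relb and Nfkbiz. A motif of fixed letters (GGGA, any base, then TTTCC), on either strand, was found in 0.411% of all 32851 windows and in those of 2 of the 7 members, Nfkbia and Nfkb2. The wider NF-κB consensus, which includes every match to the fixed letters, was found in 4.51% of all windows and in those of 5 of the 7 members, Nfkbia, Nfkbie, Bcl3, Nfkb2 and Rel. It was not found in the windows of Nfkbib and Rela. One match for each of the 5 members is shown, 5′ to 3′ on the strand of the gene, with the matched bases in capitals:
Nfkbia: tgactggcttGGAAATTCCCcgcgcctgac
Nfkb2: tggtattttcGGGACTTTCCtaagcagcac
Nfkbie: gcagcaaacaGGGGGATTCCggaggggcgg
Bcl3: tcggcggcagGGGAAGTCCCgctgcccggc
Rel: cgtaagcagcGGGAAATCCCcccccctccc

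These stretches lie at chr12:55492657-55492686 (Nfkbia, minus strand), chr19:46305695-46305724 (Nfkb2, plus strand), chr17:45555584-45555613 (Nfkbie, plus strand), chr7:19822734-19822763 (Bcl3, minus strand) and chr11:23771042-23771071 (Rel, minus strand) of GRCm38.p6. The Nfkbia match begins 29 bases before the gene start, and the Nfkb2 match lies in both of 2 overlapping windows of that gene. The Rel match overlaps a second match shifted by 1 base. A match is a description of these letters in the window and was not tied to any fold change.

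The first question was which members changed when BMDMs met inflamed airway fluid. With RNY1+/+ EVFx, the 5 I-κB genes, Nfkb2, Relb and Rel rose, and Rela and Nfkb1 were not called. Thus 8 of the 10 members were called, where 44.5% of all 10797 genes tested were, and 7 were DEGs, where 16.4% of all genes were. The members' median log2 fold change was 1.75, against -0.03 over all genes.

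Nfkbiz (ENSMUSG00000035356), which encodes I-κBζ, had the largest log2 fold change among the members. Its level was 3.89, 6.18, 10.1 and 5.87 CPM in PBS and 120.1, 126, 108 and 119 CPM with RNY1+/+ EVFx. It was 123, 122, 128 and 126 CPM with RNY1-/- EVFx, 78.9, 67.9, 59.8 and 91.8 CPM with RNY1+/+ ProteinFx, and 23.2, 27.8, 35.9 and 32.9 CPM with RNY1-/- ProteinFx. All 16 treated libraries lay above the 4 PBS libraries. The 2 EVFx groups overlapped and were highest, followed without overlap by RNY1+/+ ProteinFx and then RNY1-/- ProteinFx. Against PBS, the log2 fold changes were 4.38 (SE 0.21) and 4.51 (SE 0.20) with RNY1+/+ and RNY1-/- EVFx, and 3.71 (SE 0.24) and 2.28 (SE 0.26) with RNY1+/+ and RNY1-/- ProteinFx, with adjusted p-values from 3.01e-08 to 0.000121.

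Nfkbia (ENSMUSG00000021025), which encodes I-κBα, the main feedback inhibitor, was the member whose groups were most cleanly separated. It was at 138, 133, 133 and 147 CPM in PBS, at 1142, 1214, 1094 and 1113 CPM with RNY1+/+ EVFx, and at 849.9, 908, 812 and 1032 CPM with RNY1-/- EVFx. With ProteinFx it was at 496, 502, 451 and 660.0 CPM (RNY1+/+) and at 315, 278, 257 and 291 CPM (RNY1-/-). No 2 neighbouring groups in this order overlapped. Its log2 fold changes against PBS were 3.23 (SE 0.10), 2.95 (SE 0.12), 2.11 (SE 0.14) and 1.12 (SE 0.11) in that order of groups, each of them called.

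Nfkbie (ENSMUSG00000023947), which encodes I-κBε, took the same order of group means at lower counts. PBS libraries held 7.38, 6.64, 6.40 and 7.12 CPM, RNY1+/+ EVFx libraries 28.8, 33.3, 26.0 and 35.9 CPM, and RNY1-/- EVFx libraries 24.8, 27.7, 26.4 and 30.6 CPM. RNY1+/+ ProteinFx libraries held 18.4, 14.95, 12.8 and 16.5 CPM and RNY1-/- ProteinFx libraries 13.8, 8.81, 10.8 and 10.1 CPM. All treated libraries were above all PBS libraries, and the 2 genotypes overlapped within each fraction. The rise against PBS was called in the 4 treated groups, with log2 fold changes of 2.35, 2.23, 1.36 and 0.72, the last with an adjusted p of 0.0148. This call was lost without PBS replicate 2 (adjusted p = 0.0511) and with RNY1-/- ProteinFx libraries 1 and 2 alone (0.0741).

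Nfkbib (ENSMUSG00000030595), which encodes I-κBβ, had its highest levels with EVFx. Its level was 25.8, 28.0, 18.1 and 23.7 CPM in PBS, 76.0, 77.2, 73.3 and 91.5 CPM with RNY1+/+ EVFx, and 52.0, 59.4, 46.1 and 57.4 CPM with RNY1-/- EVFx. It was 31.4, 26.4, 28.7 and 30.02 CPM with RNY1+/+ ProteinFx and 27.0, 27.8, 14.3 and 22.8 CPM with RNY1-/- ProteinFx, and both of these groups overlapped PBS. The log2 fold change was 1.91 (SE 0.14) with RNY1+/+ EVFx, 1.41 (SE 0.15) with RNY1-/- EVFx and 0.45 (SE 0.15, adjusted p = 0.0236) with RNY1+/+ ProteinFx, and it was 0.03 (SE 0.20, adjusted p = 0.929) with RNY1-/- ProteinFx. With total count scaling, the RNY1+/+ ProteinFx value was 0.28 and not called (adjusted p = 0.126), and the call was also lost in 3 of the 8 fits that left out 1 library (PBS replicate 4, RNY1+/+ ProteinFx replicate 1 or 4). After removal of trends with transcript GC content and length for each library, both ProteinFx values were called, at 1.06 (adjusted p = 7.81e-06) with RNY1+/+ and 0.57 (adjusted p = 0.00725) with RNY1-/-.

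Bcl3 (ENSMUSG00000053175), a nuclear cofactor of p50 and p52, rose against PBS in all 4 treated groups and was highest with RNY1+/+ EVFx. PBS libraries were at 22.1, 23.6, 11.2 and 18.7 CPM and RNY1+/+ EVFx libraries at 77.3, 75.6, 65.1 and 91.7 CPM. The other groups stood between them, at 43.7, 46.6, 36.9 and 43.1 CPM (RNY1-/- EVFx), 42.7, 42.1, 46.2 and 43.4 CPM (RNY1+/+ ProteinFx) and 56.9, 54.7, 29.5 and 28.3 CPM (RNY1-/- ProteinFx). In the last group, libraries 1 and 2 were well above libraries 3 and 4. The log2 fold changes were 2.20, 1.40, 1.36 and 1.22, and the last was 0.73 and not called (adjusted p = 0.0648) with RNY1-/- ProteinFx libraries 3 and 4 alone. With GC and length trends removed, the 4 values were 2.45, 2.25, 2.22 and 1.99, all called.

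**Figure D1:**
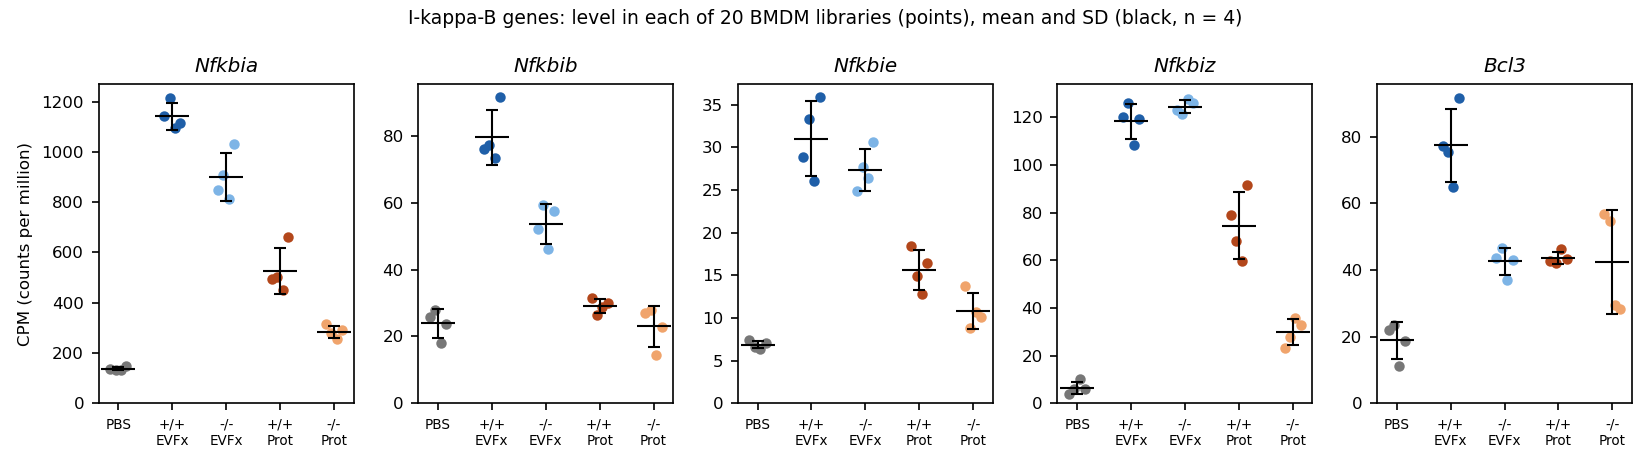
Level of the 5 I-κB genes in CPM (linear axes from 0, a scale for each gene) in each of the 20 libraries, with the mean and SD of each group in black (n = 4); Prot stands for ProteinFx. Nfkbia and Nfkbiz separate the 2 ProteinFx genotypes without overlap, with Nfkbiz at 59.8 to 91.8 CPM against 23.2 to 35.9 CPM.

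Relb and Nfkb2, which form the p52 and RelB dimer of the alternative NF-κB pathway, were highest with RNY1+/+ EVFx. Relb (ENSMUSG00000002983) was at 22.5, 21.5, 10.5 and 15.1 CPM in PBS, 37.2, 39.2, 38.2 and 51.5 CPM with RNY1+/+ EVFx, and 22.5, 27.1, 22.9 and 22.4 CPM with RNY1-/- EVFx. With ProteinFx it was at 20.9, 16.7, 18.6 and 17.7 CPM (RNY1+/+) and 22.1, 18.7, 9.56 and 16.3 CPM (RNY1-/-), within or overlapping the range of PBS. It was called against PBS with RNY1+/+ EVFx (log2 fold change 1.42, SE 0.21) and RNY1-/- EVFx (0.68, SE 0.21, adjusted p = 0.0152, but 0.0934 with total count scaling and 0.0519 without PBS replicate 4), and it was at 0.25 and 0.02 with RNY1+/+ and RNY1-/- ProteinFx, neither called. With the same trends removed, RNY1-/- EVFx gave 1.103 and RNY1+/+ ProteinFx 0.70, both called (adjusted p = 1.03e-05 and 0.000862), and RNY1-/- ProteinFx gave 0.42 (adjusted p = 0.0687).

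Nfkb2 (ENSMUSG00000025225), which encodes p100 and its product p52, was at 11.5, 13.6, 6.18 and 8.72 CPM in PBS and 25.1, 25.5, 19.6 and 37.1 CPM with RNY1+/+ EVFx, with no overlap. In the other groups it was at 9.98, 12.7, 12.1 and 11.6 CPM (RNY1-/- EVFx), 6.70, 5.07, 8.29 and 9.89 CPM (RNY1+/+ ProteinFx) and 6.61, 7.41, 7.17 and 3.37 CPM (RNY1-/- ProteinFx), all overlapping PBS. Its log2 fold change was 1.59 (SE 0.24, adjusted p = 0.000324) with RNY1+/+ EVFx. The values of 0.43, -0.24 and -0.65 in the other 3 groups were not called. Without PBS replicate 3, the last was -0.81 (adjusted p = 0.0177). With these trends removed, the 3 values were 1.02 (adjusted p = 9.16e-05, called), 0.36 (adjusted p = 0.145) and -0.12 (adjusted p = 0.678).

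Rel and Nfkb1 had their highest means with RNY1+/+ ProteinFx. Rel (ENSMUSG00000020275), which encodes c-Rel, was at 41.4, 39.9, 52.6 and 49.6 CPM in PBS, 53.2, 55.1, 61.3 and 51.3 CPM with RNY1+/+ EVFx and 60.8, 63.6, 70.2 and 69.3 CPM with RNY1-/- EVFx. With ProteinFx it was at 79.1, 87.7, 84.2 and 87.4 CPM (RNY1+/+) and at 68.8, 72.1, 89.6 and 91.8 CPM (RNY1-/-). It was called in the 4 treated groups, with log2 fold changes of 0.44, 0.77, 1.05 and 0.88, although the first was 0.26 and not called with total count scaling (adjusted p = 0.0899). Its values with GC and length trends removed were 0.43, 0.37, 0.63 and 0.49, all called and none past the DEG limit.

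Nfkb1 (ENSMUSG00000028163), which encodes p105 and its product p50, was at 104, 111, 164 and 119.6 CPM in PBS, where replicate 3 was highest. It was at 138, 142, 147 and 130.1 CPM with RNY1+/+ EVFx and 186, 175, 176 and 189 CPM with RNY1-/- EVFx. With ProteinFx it was at 217, 249, 213 and 269 CPM (RNY1+/+) and 158, 163, 249 and 245 CPM (RNY1-/-). The log2 fold changes were 0.34 (SE 0.14, adjusted p = 0.0714), 0.79 (SE 0.14), 1.101 (SE 0.15) and 0.79 (SE 0.21), of which the last 3 were called. Without PBS replicate 3, the first was 0.49 and called (adjusted p = 0.00042). With RNY1-/- ProteinFx libraries 1 and 2 alone, the last was 0.39 and not called (adjusted p = 0.187), and it was also not called without PBS replicate 1 or 2 or RNY1-/- ProteinFx replicate 4. The 4 values with these trends removed were 0.24 (adjusted p = 0.0308), 0.48, 0.77 and 0.47 (adjusted p = 0.0266), all called and none past the DEG limit.

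Rela (ENSMUSG00000024927), which encodes p65, the main activating subunit of the classical pathway, was the only member that fell. Its level was 38.1, 41.7, 13.7 and 29.01 CPM in PBS and 25.1, 25.02, 18.8 and 33.3 CPM with RNY1+/+ EVFx, which overlapped. It was 12.7, 13.6, 8.87 and 10.8 CPM with RNY1-/- EVFx, 12.6, 7.10, 12.8 and 12.5 CPM with RNY1+/+ ProteinFx and 17.2, 17.9, 9.96 and 9.08 CPM with RNY1-/- ProteinFx. The log2 fold change was -0.09 (adjusted p = 0.832) with RNY1+/+ EVFx, and -1.17, -1.27 and -1.09 in the other 3 groups, all called. PBS replicate 3, at 13.7 CPM, lay among the treated libraries, and without it these 3 values were -1.38, -1.50 and -1.32. After trends with transcript GC content and length were removed, they were -0.56, -0.64 and -0.53, still called. With RNY1-/- ProteinFx the call was less firm, since it was lost in 5 of the 8 fits that left out 1 library (PBS replicate 1, 2 or 4, RNY1-/- ProteinFx replicate 3 or 4) and with its libraries 1 and 2 alone (-0.79, adjusted p = 0.205). Across all genes, the Spearman rho of the change from PBS with transcript GC content was -0.09 with RNY1+/+ EVFx. It was -0.42 with RNY1-/- EVFx, and -0.46 and -0.49 with RNY1+/+ and RNY1-/- ProteinFx. Genes of 55% to 60% GC, the range of Rela, had median log2 fold changes of -0.10, -0.56, -0.59 and -0.53 in these groups. The source of this trend was not tested.

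**Figure D2:**
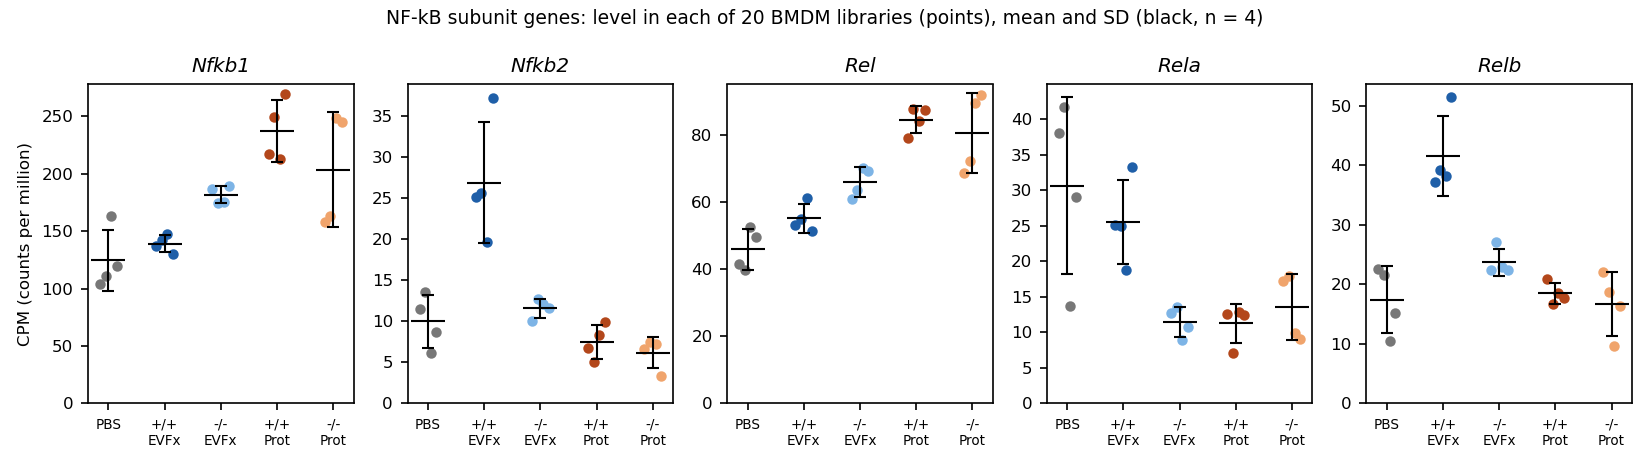
Level of the 5 NF-κB subunit genes in CPM (linear axes from 0, a scale for each gene) in each of the 20 libraries, with the mean and SD of each group in black (n = 4); Prot stands for ProteinFx. Relb and Nfkb2 are highest with RNY1+/+ EVFx, Rel and Nfkb1 have their highest means with RNY1+/+ ProteinFx, and PBS replicate 3 is the lowest PBS point of Rela at 13.7 CPM.

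The comparisons against PBS share their 4 control libraries, so their values are set side by side and no overlap between them is given. With RNY1-/- EVFx, 9 members were called and 6 were DEGs, where 58.3% and 22.5% of all genes were. With RNY1+/+ ProteinFx, 8 were called and 7 were DEGs, against 55.2% and 21.3% of all genes. With RNY1-/- ProteinFx, 7 were called and 4 were DEGs, against 35.7% and 14.3%. The counts called at an adjusted p under 0.05 are to be read against these high shares, since from 35.7% to 58.3% of all genes passed that limit against PBS. Leaving out PBS replicate 2 took the 7 called members with RNY1-/- ProteinFx to 4, and leaving out PBS replicate 3 took them to 8. With either pair of RNY1-/- ProteinFx libraries alone, Nfkbiz, Nfkbia and Rel were still called against PBS, at 2.01, 1.13 and 0.65 with libraries 1 and 2 and at 2.54, 1.12 and 1.12 with libraries 3 and 4.

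**Figure D3:**
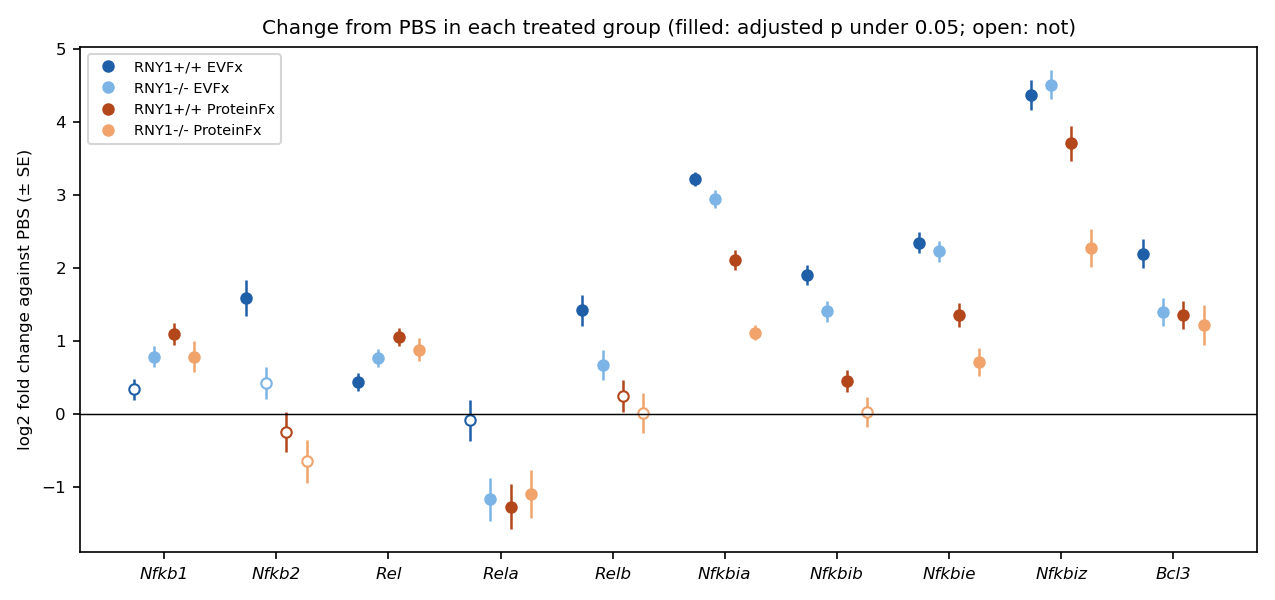
Log2 fold change against PBS (points, bars show ± 1 SE) of each member in the 4 treated groups; filled points have an adjusted p under 0.05 and open points do not. Nfkbiz reaches 4.51 with RNY1-/- EVFx, and Rela is the only member with called values below 0.

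The next question was whether the loss of RNY1 in the BALF donors changed the response to each fraction. In ProteinFx, 2 members, Nfkbiz and Nfkbia, were called, both lower with RNY1-/- ProteinFx, where 5.57% of all 10471 genes were called. Nfkbiz was also a DEG, where 1.82% of all genes were. The members' median log2 difference was -0.34, against 0.02 over all genes.

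Nfkbiz averaged 74.6 ± 13.9 CPM (SD, n = 4) with RNY1+/+ ProteinFx and 29.97 ± 5.58 CPM (SD, n = 4) with RNY1-/- ProteinFx. The lowest RNY1+/+ library, at 59.8 CPM, was above the highest RNY1-/- library, at 35.9 CPM. The log2 fold change of RNY1-/- against RNY1+/+ was -1.43 (SE 0.18, adjusted p = 0.000558). It was -1.68 with RNY1-/- ProteinFx libraries 1 and 2 alone and -1.17 with libraries 3 and 4 alone, and -1.46 after removal of GC and length trends, all called. Leaving out each of the 8 libraries gave values from -1.53 to -1.30, also all called.

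Nfkbia averaged 527 ± 91.4 CPM (SD, n = 4) with RNY1+/+ ProteinFx and 285 ± 24.3 CPM (SD, n = 4) with RNY1-/- ProteinFx, with no overlap. Its log2 fold change was -0.98 (SE 0.13, adjusted p = 0.00101), just short of the DEG limit. It was -0.97 and -0.98 with the 2 pairs of RNY1-/- ProteinFx libraries, and between -1.05 and -0.84 when each library was left out, called each time.

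Nfkbie and Nfkbib were lower in mean with RNY1-/- ProteinFx, at log2 fold changes of -0.63 (SE 0.18, adjusted p = 0.0592) and -0.40 (SE 0.16, adjusted p = 0.201). Neither passed the test, but Nfkbie was called with RNY1-/- ProteinFx libraries 1 and 2 alone (-0.65, adjusted p = 0.0276) and Nfkbib with libraries 3 and 4 alone (-0.64, adjusted p = 0.0445). After removal of GC and length trends, they were -0.70 (adjusted p = 0.036) and -0.46 (adjusted p = 0.0399), and 4 members were then called. The remaining values were -0.38 for Nfkb2, -0.30 for Nfkb1, -0.20 for Relb, -0.16 for Rel, -0.11 for Bcl3 and 0.21 for Rela, with adjusted p-values of 0.38 or more. For Nfkb1, Rel and Bcl3, the 2 pairs of RNY1-/- ProteinFx libraries gave different answers. Over all genes, 27.7% were called with libraries 1 and 2 alone and 8.33% with libraries 3 and 4 alone. All member calls with a single pair, those of Nfkbie and Nfkbib included, are read against these shares. Nfkb1 was at -0.70 and Rel at -0.40 with libraries 1 and 2 alone, both called, and at 0.02 and 0.07 with libraries 3 and 4 alone, not called. Bcl3 was at 0.22, not called, and -0.63, called (adjusted p = 0.00849). The GC-poor Nfkb1 and Rel were thus lower with libraries 1 and 2 than with libraries 3 and 4, and the GC-rich Bcl3 was higher. A tie of this split to GC content was not tested.

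In EVFx, 8 members were called between genotypes, where 52.1% of all 10321 genes were, so this share is read against a high background. Nfkb2 and Rela were DEGs, where 2.35% of all genes were. With RNY1-/- EVFx, Nfkb2, Rela, Bcl3, Relb, Nfkbib and Nfkbia fell, and Nfkb1 and Rel rose. Nfkbie and Nfkbiz were at -0.12 and 0.14 and were not called.

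Nfkb2 averaged 26.8 ± 7.35 CPM (SD, n = 4) with RNY1+/+ EVFx and 11.6 ± 1.15 CPM (SD, n = 4) with RNY1-/- EVFx, with a log2 fold change of -1.17 (SE 0.18, adjusted p = 0.000344). Rela averaged 25.6 ± 5.96 and 11.5 ± 2.099 CPM, with a log2 fold change of -1.08 (SE 0.17, adjusted p = 0.000401). In neither gene did the genotypes overlap. Without RNY1+/+ EVFx replicate 4, the highest library of both genes, neither was a DEG, and without RNY1-/- EVFx replicate 3 only 1 of them was. Smaller falls were found for Bcl3 (-0.79), Relb (-0.74), Nfkbib (-0.49) and Nfkbia (-0.27, adjusted p = 0.0238), and rises for Nfkb1 (0.46) and Rel (0.33). The call of Nfkbia was lost in 3 of the 8 fits that left out 1 library.

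These EVFx differences moved with the base composition of the transcripts. Across all genes with a known GC content, the log2 fold change of RNY1-/- against RNY1+/+ EVFx had a Spearman rho of -0.65 with transcript GC content, a description across genes, which are not independent and share their libraries. The median was 0.42 for genes under 40% GC and -0.62 for genes of 60% GC or more. Among the members, Rel (42.5% GC) and Nfkb1 (44.9%) rose, Nfkbiz (50.1%) and Nfkbie (55.4%) were not called, and Nfkbia (52.9%), Relb (56.8%), Nfkbib (58.8%), Rela (59.4%), Nfkb2 (59.4%) and Bcl3 (62.6%) fell. When trends with GC content and length were removed for each library, 5 members were called and none was a DEG. Nfkb2 was then at -0.67, Rela at -0.54, Relb at -0.30, Nfkb1 at 0.25 and Nfkbiz at 0.19 (adjusted p = 0.0464). Bcl3 was at -0.20 (adjusted p = 0.0597), and Nfkbia, Nfkbib and Rel were at -0.01, 0.02 and -0.05, not called. The source of the GC trend was not tested. In ProteinFx, the corresponding rho was 0.16.

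**Figure D4:**
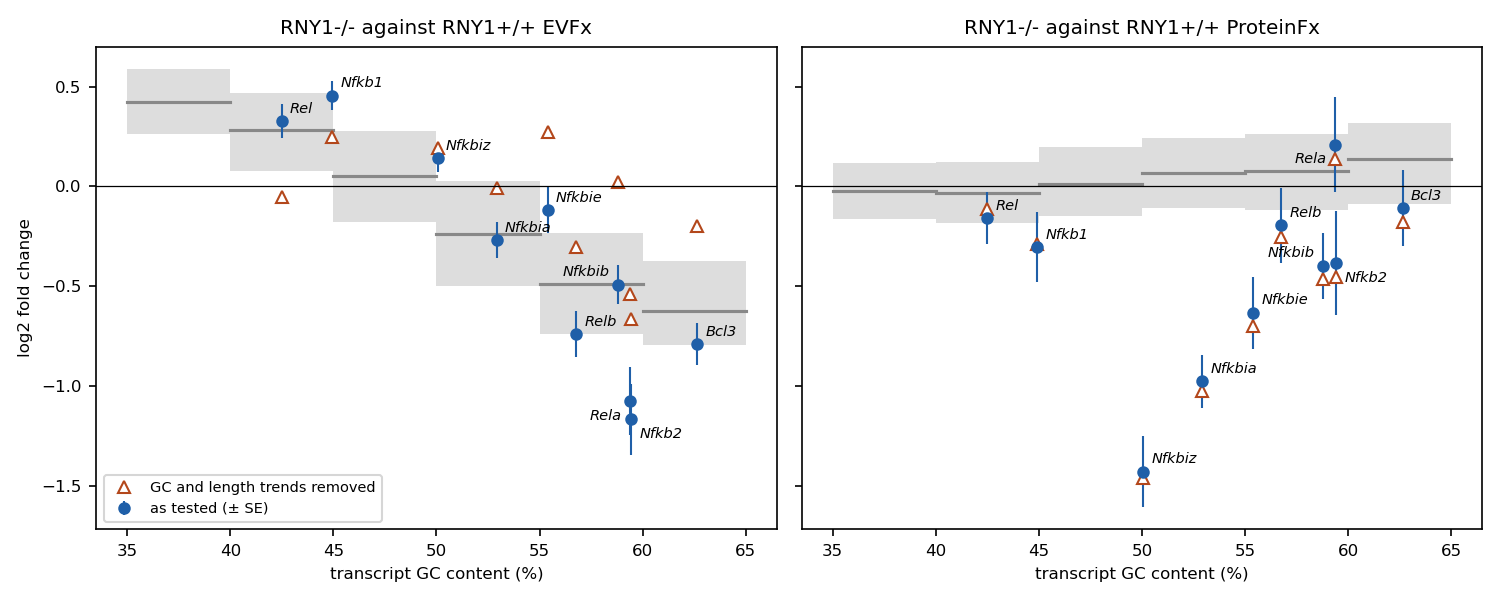
Log2 fold change of RNY1-/- against RNY1+/+ against transcript GC content for the 10 members in EVFx (left) and ProteinFx (right); circles (± 1 SE) are the values as tested and open triangles those after removal of GC and length trends. Grey boxes and lines are the quartiles and median of all genes in bins of GC content, with the outermost bins drawn to 35% and 65%; in EVFx the medians go from 0.42 to -0.62, and in ProteinFx Nfkbiz, at -1.43, is far below its bin.

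A difference in genotype effect from one fraction to the other was tested by an interaction term (16 libraries). It was called for 6 members, where 33.0% of all genes were, and 2 of them, Nfkbiz and Rela, passed the DEG limits, where 7.79% of all genes did. For Nfkbiz the effect in ProteinFx minus that in EVFx was -1.58 (SE 0.19, adjusted p = 0.000187) and for Nfkbia -0.71 (SE 0.17, adjusted p = 0.00642), so the genotype difference of both was more negative in ProteinFx than in EVFx. After removal of GC and length trends, these were -1.66 and -1.001, and Nfkbie and Nfkbib were at -0.98 (adjusted p = 0.00678) and -0.47 (adjusted p = 0.0293). Without that removal, Nfkbie was at -0.53 (adjusted p = 0.063) and Nfkbib at 0.10 (adjusted p = 0.69), a change of sign. The differences of 1.29 for Rela, -0.76 for Nfkb1, 0.69 for Bcl3 and -0.49 for Rel became 0.69, -0.54, 0.04 and -0.07, and the last 2 were no longer called. Without that removal, the call of Rel held in 10 and that of Bcl3 in 12 of the 16 fits that left out 1 library. With RNY1-/- ProteinFx libraries 3 and 4 alone, only Nfkbiz and Nfkbia were called, and with libraries 1 and 2 alone Nfkb2 (0.93) and Relb (0.75) were called as well. Calls over all genes also changed with the pair, as given in the last section, and these member calls are read against them.

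The fractions were also set side by side within each genotype, with the caution that their doses differ in unit. In RNY1+/+ material, 10 members were called between ProteinFx and EVFx, where 63.3% of all genes were, and 5 were DEGs, where 13.5% were. Nfkb2 (-1.83), Nfkbib (-1.44), Rela (-1.18), Relb (-1.17) and Nfkbia (-1.11) were the DEGs, lower with ProteinFx, and Nfkb1 (0.77) and Rel (0.62) were higher. After removal of GC and length trends, only Nfkb2 (-1.28) remained a DEG. In RNY1-/- material, 6 members were called, where 29.2% of all genes were, and 5 were DEGs, where 9.03% were. These 5 were Nfkbiz (-2.24), Nfkbia (-1.82), Nfkbie (-1.51), Nfkbib (-1.35) and Nfkb2 (-1.06), all lower with ProteinFx. With either pair of RNY1-/- ProteinFx libraries alone these 5 were called, at -2.48, -1.82, -1.51, -1.18 and -0.91 with libraries 1 and 2, where Nfkb2 was no DEG, and at -1.97, -1.83, -1.50, -1.59 and -1.32 with libraries 3 and 4. Nfkb1 was called with either pair but in opposite directions (-0.39 and 0.33), and Rel (0.36) and Bcl3 (-0.68) were called with libraries 3 and 4 alone. Here rho with GC content was 0.07, against -0.49 in RNY1+/+ material.

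Nfkbid and Nfkbil1, the other I-κB family genes in the table, were not called higher than PBS in any treated group. Nfkbid, which encodes the nuclear protein I-κBNS, was at 6.63 to 8.72 CPM in PBS and 7.01 to 10.3 CPM with RNY1+/+ EVFx, and at 2.28 to 3.64 CPM with RNY1+/+ ProteinFx, where it fell (log2 fold change -1.18, SE 0.22, adjusted p = 0.000886). It also fell with RNY1-/- ProteinFx (-0.95, adjusted p = 0.00833). Nfkbil1 was at 1.53 to 6.02 CPM in all libraries and fell with RNY1+/+ ProteinFx (-0.91, adjusted p = 0.037). Neither was called against PBS with EVFx of either genotype. After removal of GC and length trends, Nfkbid was called with RNY1-/- EVFx (0.51, adjusted p = 0.0392) and no longer with RNY1-/- ProteinFx, and the value of Nfkbil1 with RNY1+/+ ProteinFx turned to 0.08, not called.

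The rest of the pathway was followed in lists of receptors, adaptors, IKK components, inhibitors and target genes. With RNY1+/+ EVFx against PBS, where 44.5% of all genes were called, 4 of 8 receptors tested rose and 1 fell. The receptor genes with the largest called log2 fold changes were Cd40 (3.45) and Tnfrsf1b (2.58), which encodes the second tumor necrosis factor receptor and went from 245 ± 25.3 to 1292 ± 92.1 CPM (SD, n = 4). Of 21 adaptors, 11 rose and none fell, led by Traf1 (3.86), Malt1 (3.17), a protease of the CARD signalling complex, and Birc3 (2.81), a ubiquitin ligase. Of 14 IKK components and kinases, 6 rose and none fell, led by Ikbke (1.12), which encodes an IKK-related kinase. Of 11 inhibitors of the pathway, 5 rose and 1 fell, with Zc3h12a (2.61), an RNase that degrades cytokine transcripts, and Tnfaip3 (1.98), which encodes the deubiquitinase A20, among the risen. Of 20 target genes, 18 rose and 2 fell, with Cxcl2, a neutrophil chemokine, from 4.82 ± 0.456 to 517 ± 134 CPM (SD, n = 4; log2 fold change 6.91) and Il1b from 0.478 ± 0.375 CPM, 0 to 4 counts a library and too low for a fold, to 49.6 ± 6.54 CPM. Il12b was at 0.114 ± 0.229 CPM in PBS, likewise too low, and at 21.4 ± 3.30 CPM with RNY1+/+ EVFx. The median log2 fold change was 4.25 for the target genes and 0.33 for the IKK list, against -0.03 over all genes. The filter kept 20 of 23 listed target genes, and genes low in PBS, Il1b and Il12b among them, passed it only through their levels with RNY1+/+ EVFx. The count of risen target genes and their median are thus partly set by the filter and are descriptions. Against the 44.5% of all genes called, the counts of receptors, adaptors, IKK components and inhibitors are not read as results about these lists.

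With RNY1+/+ ProteinFx against PBS, where 55.2% of all genes were called, 15 of 18 target genes rose and 2 fell. Saa3, an acute phase protein of the serum amyloid A family, was at 4.78 and Il1a at 4.49. Il1a reached 140 ± 98.0 CPM and Il1b 39.6 ± 31.9 CPM, both uneven between libraries. Of 8 receptors, 5 rose and none fell. Of 21 adaptors, 9 rose and 3 fell. Of 14 IKK components, 5 rose and 2 fell, with Map3k8 (1.59), which encodes a kinase bound to p105, in the lead. Of 11 inhibitors, 5 rose and 3 fell. Again the counts of the last 4 lists are not read as results, given the share of all genes. The filter kept 18 of 23 listed target genes. Genes low in PBS, such as Il1b and Ptgs2 (0.791 CPM in PBS), passed it only through their levels with RNY1+/+ ProteinFx. The target count is thus likewise a description.

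Between genotypes in ProteinFx, 10 of 18 target genes tested were called, all lower with RNY1-/- and all of them DEGs, where 5.57% and 1.82% of all genes were, and the list's median was -1.14, against 0.02 over all genes. The list was chosen with earlier results of these data known, so this count and median are descriptions. Il1b averaged 39.6 ± 31.9 CPM with RNY1+/+ and 6.11 ± 1.91 CPM with RNY1-/- ProteinFx (SD, n = 4; log2 fold change -2.74, SE 0.47, adjusted p = 0.00478). Saa3 went from 3517 ± 1085 to 811 ± 229 CPM (-2.22, adjusted p = 0.000194), and Il1a from 140 ± 98.0 to 36.1 ± 6.76 CPM (-2.07). Of 11 inhibitors, 3 were called, all lower, Tnfaip3 (-1.104), Tnip3 (-0.79) and Tnip1 (-0.60), of which both Tnip genes encode A20-binding proteins. Of 20 adaptors, 3 were lower, Irak3 (-1.31), which encodes a brake on interleukin-1 and Toll-like receptor signalling, Traf1 (-1.01) and Ripk2 (-0.46). Of 8 receptors, Tnfrsf1b (-0.92, from 898 ± 74.6 to 505 ± 41.6 CPM) and Cd40 (-0.87) were lower. None of 13 IKK components and kinases was called with all 8 libraries. With RNY1-/- ProteinFx libraries 1 and 2 alone, 12 target genes were lower and 1 higher, where 27.7% of all genes were called, and with libraries 3 and 4 alone 13 were lower and 1 higher, where 8.33% were. Il1b, Saa3 and Il1a were called with either pair, at -2.57, -1.95 and -2.12 and at -3.10, -2.54 and -2.04. The other 8 genes named here were lower with either pair, each of them called except Ripk2 with libraries 3 and 4 (-0.46, adjusted p = 0.0785). Tnfaip3 and Tnip3 were at -1.56 and -1.11 with libraries 1 and 2 against -0.72 and -0.52 with libraries 3 and 4, and Tnip1 was at -0.39 against -0.92. The IKK list also changed, against the same shares of all genes. With libraries 1 and 2 alone, 5 of 14 IKK components were lower, and with libraries 3 and 4 alone, 2 of 13 were lower and 1 higher. Map3k8 was called in opposite directions, at -0.60 and 0.40. Among receptors, Cd14 was lower with either pair (-0.49 and -0.87), and Tlr4 was higher with libraries 3 and 4 alone (0.51), all called.

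Between genotypes in EVFx, where 52.1% of all genes were called and 2.35% were DEGs, 12 of 20 target genes were lower with RNY1-/- and 1 was higher, 5 of the 12 being DEGs, among them Tnf (-1.22), Il1b (-1.21) and Saa3 (-1.11). After removal of GC and length trends, 14 were lower and 1 higher, where 3369 of 10019 genes tested were called, 1933 of them lower. The list median was then -0.44 against -0.04 over all genes, and Tnf was at -0.997, Il1b at -1.33 and Saa3 at -1.11. These target counts and this median are descriptions too, as the list was chosen with earlier results known. Of 21 adaptors, 9 were lower and 2 higher, both before and after that removal. Of 11 inhibitors, 3 were lower and 5 higher, which became 2 and 1. Of 13 IKK components, 6 were lower and 3 higher, which became 2 and 2. Map3k8, by contrast, was 0.85 higher on the log2 scale.

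Members were last compared by the shape of their levels over the 5 groups, as the root mean square (RMS) difference between centred log2 group means. Rel and Nfkb1 were the closest pair of members, at 0.07, followed by Relb and Nfkbib at 0.27 and Relb and Nfkb2 at 0.29. Among 7563 other genes with a mean of at least 10 CPM, the genes nearest to Nfkbia were Cd40 (0.08) and Fabp3 (0.15), and those nearest to Nfkbiz were Sod2 (0.16), which encodes mitochondrial superoxide dismutase and is in the target list, and Clic5 (0.28). Nearest to Nfkbib were Fdps (0.06) and Ebi3 (0.09), to Nfkbie Scd2 (0.07), and to Bcl3 Psmb8 (0.14) and H2-Q4 (0.15). Among the subunits, Rel was nearest to Atad2b (0.03) and Nkiras1 (0.04), Nfkb1 to Ugdh (0.05) and Pcgf3 (0.05), Rela to Sirt2 (0.05) and Parvb (0.06), Relb to Stk40 (0.10) and Ccdc62 (0.10), and Nfkb2 to Mapkapk2 (0.14) and Fdft1 (0.15). Atad2b, Nkiras1, Ugdh and Pcgf3 had a GC content of 42.0 to 43.7%, like Rel and Nfkb1. Other nearest genes were less alike, such as Ccdc62 (44.1%) for Relb (56.8%) and Sod2 (42.2%) for Nfkbiz (50.1%). Stk40 (56.5%) was close to Relb. A tie of likeness to GC content was not tested. With 5 group means, such likeness is a description.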

How the data were processed

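The 20 BMDM libraries were sequenced from 3′ ends by a service provider. Per the labels and methods, the authors' provider filtered reads with fastp 0.24.0, aligned them with STAR 2.7.11 (build GRCm39, the annotation release not given in the sources used here), collapsed duplicate reads by molecular identifier (UMIcollapse) and counted by strand with featureCounts (Subread 2.1.1), sharing multimapping reads as fractions. Expected counts, not normalized, were deposited together with CPM, the count over the library's total. No column was left unmatched to a sample.

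Expected counts were rounded and tested with edgeR 4.0.16 (glmQLFit, glmQLFTest, TMM) under R 4.3.3 on the 8 libraries of each pair of groups, or 16 for the interaction, keeping genes that passed filterByExpr and averaged 3 CPM or more. SE was obtained by dividing the log2 fold change by the root of F. GC content and length of transcripts came from GENCODE vM21, known for 96.7% to 97.1% of genes tested; their trends were removed as offsets (natural splines with 4 degrees of freedom for each library). Gene members, lists and tests were chosen with earlier results of these data known. The named genes are all 10 members, up to 3 genes for each list and comparison with the largest called change and a mean of at least 10 CPM, and the 2 nearest genes for each member, of which 1 is not reported here. Replicate libraries differed by 2.30 to 35.0 times counting noise in squared difference, so none was taken as a duplicate. Pairing by replicate number was checked by the correlation of deviations from group means; every pair exceeded 0.1 only between RNY1-/- EVFx and PBS (0.13 to 0.38) and between RNY1-/- ProteinFx and RNY1-/- EVFx (0.22 to 0.40). Values printed come from fits without a replicate block, which was an alternative. Scripts were tested on simulated data. Alternatives were DESeq2 1.42.0, total counts, 2 other filters, all 20 libraries in one fit, a replicate block, GC and length trends removed, each library left out, and RNY1-/- ProteinFx split into its 2 pairs of libraries. GC and length removal with PBS replicate 3 left out, and the pathway lists with each of these 2 pairs, were added after seeing the data.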

Additional observations from a re-analysis of the deposited data

Results flagged for a closer look

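In 3 of 50 groups of 4 libraries (10 members in 5 groups), 1 library stood far from the other 3 by Dixon's test at the 95% level, which chance gives in about 1 of 20 groups. Rela in RNY1+/+ ProteinFx was at 7.10 CPM in library 2, below the other 3. Relb in RNY1+/+ EVFx was at 51.5 CPM in library 4, and Relb in RNY1-/- EVFx was at 27.1 CPM in library 2, each above its group.

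The genotype effect differed between ProteinFx and EVFx, by the interaction term in edgeR, for 6 members, where 33.0% of all genes were called. The effect in ProteinFx minus that in EVFx, on the log2 scale, was -1.58 for Nfkbiz, -0.71 for Nfkbia, -0.76 for Nfkb1 and -0.49 for Rel. It was 1.29 for Rela and 0.69 for Bcl3. After removal of GC and length trends, Nfkbiz, Nfkbia, Nfkb1 and Rela were still called and Rel and Bcl3 were not.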

How the results depend on the processing

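DESeq2 kept the direction and call of all 90 member values (10 members in 9 comparisons), and of 800 values with 1 library left out, 745 kept both, 27 lost the call, 10 gained it and 18 changed sign, none of the latter called. Low counts (down to 13 for Nfkb2) and 4 libraries a group limit the precision, and the cause of each change below was not tested. With GC and length trends removed, sign changed for Nfkb2 in RNY1+/+ ProteinFx against PBS (0.36, 0.34 with the replicate block and 0.33 without PBS replicate 3, which was chosen after seeing the data), Nfkbib (0.022), Nfkbie (0.27) and Rel (-0.054, or -0.053 with the block) between EVFx genotypes, and the Nfkbib interaction (-0.47). Called members then went from 8 to 5 between EVFx genotypes and from 2 to 4 between ProteinFx genotypes, and DEG members from 2 to 0, from 1 to 2 and, between fractions in RNY1+/+ material, from 5 to 1, with or without the block, which also took DEG members of the interaction from 2 to 1. Over all genes, calls between EVFx genotypes went from 5379 to 3369 (DEGs 243 to 94, or 91 with the block), between ProteinFx genotypes from 583 to 903, and of the interaction from 3449 to 2166 (DEGs 814 to 430, or 451 with the block).

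In 2 comparisons every correlation by replicate number exceeded 0.1. There the replicate block changed the call of no called member and moved no count of members by over 1.5 times. In the others not every pair exceeded 0.1. Such correlations cannot tell if libraries of one number were paired, which the labels do not state. The samples were therefore taken to share only a number. For RNY1-/- ProteinFx against PBS the correlations were 0.51, 0.62, 0.64 and 0.018, and the block took called members from 7 to 8, with Nfkb2 at -0.72 (adjusted p = 0.00706 in edgeR). The replicate block took calls over all genes from 3878 to 6612 for RNY1-/- ProteinFx against PBS and from 583 to 367 between ProteinFx genotypes, and gave -0.032 for Nfkb1 between fractions in RNY1-/- material (-0.021 with trends removed) and -0.014 for Relb in RNY1-/- ProteinFx against PBS. Nfkbiz and Nfkbia between ProteinFx genotypes were -1.42 and -0.96 with the block.

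With RNY1-/- ProteinFx libraries 1 and 2 alone, Bcl3 was 0.17 between fractions and 0.22 between genotypes, and Nfkb1 (-0.39) and Rel (-0.11) changed sign between fractions, Nfkb1 being called there (adjusted p = 0.00432 in edgeR). Called members went to 4 against PBS and 5 between genotypes, and DEG members of the interaction to 4. Calls over all genes were 1575 against PBS (DEGs 921), 2903 between genotypes (DEGs 405), 4700 between fractions and 5666 for the interaction (DEGs 1903). With libraries 3 and 4 alone, Nfkb1 (0.019), Rel (0.066) and Rela (-0.30) changed sign between genotypes, as did Rela between fractions (-0.41), Nfkbib (-0.21) and Relb (-0.27) against PBS, and Nfkbib in the interaction (-0.14). Called members were then 4 between genotypes and 2 for the interaction (DEG members 1), where all genes gave 350 calls (DEGs 101).

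With all 20 libraries in one fit, filterByExpr only and no filter, Nfkb1 between fractions in RNY1-/- material was -0.0012, -0.011 and -0.022, and the first gave 2025 calls for the interaction. FilterByExpr only gave 367 DEGs between EVFx genotypes. No filter gave 3009, 3798 and 3498 DEGs against PBS for RNY1+/+ EVFx, RNY1-/- EVFx and RNY1+/+ ProteinFx, 631 and 324 between genotypes in EVFx and ProteinFx (942 calls in ProteinFx), 2563 and 1539 between fractions in RNY1+/+ and RNY1-/- material, and 1401 for the interaction. With total counts, Bcl3 between fractions in RNY1-/- material was 0.022, and Nfkbib and Relb in RNY1-/- ProteinFx against PBS were -0.034 and -0.037. The wider consensus was found in the promoters of 5 members in place of 2.

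With each library left out, calls over all genes ranged from 2421 to 5728 (RNY1-/- ProteinFx against PBS), from 234 to 881 (ProteinFx genotypes) and from 1916 to 4629 (interaction), and DEGs from 99 to 349 (EVFx genotypes), from 116 to 249 (ProteinFx genotypes) and from 483 to 1211 (interaction). Called members ranged from 4 to 8 for RNY1-/- ProteinFx against PBS, and DEG members from 0 to 2 between EVFx genotypes and from 1 to 2 between ProteinFx genotypes. Values that changed sign ranged from -0.32 to 0.090 (Rela, RNY1+/+ EVFx against PBS), from -0.14 to 0.18 (Relb) and from -0.080 to 0.17 (Nfkbib, both RNY1-/- ProteinFx against PBS), from -0.26 to 0.030 (Bcl3, ProteinFx genotypes), and from -0.12 to 0.13 (Nfkb1) and from -0.049 to 0.24 (Rela) between fractions in RNY1-/- material.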
